A study of Mus musculus with 96 samples.

Results

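The Cyp4a genes encode cytochrome P450 enzymes that hydroxylate fatty acids at the omega end, and 6 of them were followed here: Cyp4a10, Cyp4a14, Cyp4a31, Cyp4a32, Cyp4a12a and Cyp4a12b. They were chosen by gene symbol with earlier results of these data known, as were the gene lists used below. Their counts and medians beside those of all genes are therefore a description and not independent support. Each gene is given by the transcript that was highest on average. The members are 6 of 25095 symbols in every table of mouse liver expression values. RNA came from hepatocytes and from liver macrophages (labelled KC) of male C57BL/6J mice at zeitgeber time (ZT, hours after lights on) 4, 10, 16 and 22, in 96 libraries, 3 of them per genotype, cell type and time. All mice, Control included, were kept in 12 h of light and 12 h of dark and were fed for 4 weeks on D12492i, rich in fat and sucrose. Floxed mice received an adeno-associated virus at 8 weeks of age. In the knockouts the virus carried Cre under the TBG promoter, which is active in hepatocytes, and in Control it carried GFP. RevDKO (ReverbhDKO) lost both Rev-erb genes, Nr1d1 and Nr1d2, in hepatocytes. RevScapTKO (Reverb/ScaphTKO) lost both Rev-erb genes and Scap, and ScapKO (ScaphKO) lost Scap alone. The macrophages of every genotype were therefore not themselves targeted by the promoter. The 12 ScapKO hepatocyte libraries carry a macrophage cell type label but a hepatocyte title, and the titles were followed; their summed hepatocyte markers had a median of 1225922.9 RPKTM, against 50935.5 in the ScapKO macrophage libraries. Scap went against the label in 1 ScapKO hepatocyte library: the one labelled ZT22 replicate 2 held 1005.8 RPKTM of Scap, and the other 11 held 204.8 to 379.6. The ScapKO macrophage library of the same time and number was also the highest of its kind in Scap. It held 1018.2 RPKTM, and the other ScapKO macrophage libraries held 523.2 to 757.4.

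Omega-hydroxylation is a side route of fatty acid breakdown. A Cyp4a enzyme adds a hydroxyl group to the end of the chain away from the carboxyl group, alcohol and aldehyde dehydrogenases oxidise it to a dicarboxylic acid, and peroxisomal beta-oxidation shortens the product. Cyp4a10 and Cyp4a14 are textbook targets of PPAR alpha (Ppara), the nuclear receptor that senses fatty acids in liver. Cyp4a12a is known for higher expression in males and for the hydroxylation of arachidonic acid. REV-ERBs are rhythmic transcriptional repressors of the clock, and SCAP escorts the lipid-synthesis factors SREBP to their activation.

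The 6 genes lie side by side on chromosome 4, within 323.3 kb between positions 114971651 and 115294971 of build mm9. In order they are Cyp4a12a at chr4:114971651-115005420 on the plus strand, Cyp4a12b at chr4:115084229-115111639 (plus), Cyp4a14 at chr4:115158805-115168746 (minus), Cyp4a10 at chr4:115190892-115206254 (plus), Cyp4a31 at chr4:115236254-115251620 (plus) and Cyp4a32 at chr4:115273543-115294971 (plus). A stretch of 60 coding bases is shown for each, at coding bases 77 to 136, because it shows how far the copies can be told apart by a read. It lies in the first exon of every gene, was read 5′ to 3′ from the annotated mouse transcripts, and equals the mm9 genome sequence. Bases that differ from Cyp4a10 are in capitals.
Cyp4a10: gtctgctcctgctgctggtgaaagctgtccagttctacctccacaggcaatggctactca
Cyp4a32: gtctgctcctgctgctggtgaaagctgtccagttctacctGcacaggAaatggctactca
Cyp4a31: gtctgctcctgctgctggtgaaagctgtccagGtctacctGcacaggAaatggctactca
Cyp4a12a: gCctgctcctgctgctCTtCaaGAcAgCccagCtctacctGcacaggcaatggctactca
Cyp4a12b: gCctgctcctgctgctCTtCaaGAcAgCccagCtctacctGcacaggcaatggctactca
Cyp4a14: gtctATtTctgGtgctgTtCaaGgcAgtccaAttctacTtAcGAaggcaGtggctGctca
These stretches lie at chr4:115191003-115191062 (Cyp4a10), chr4:115273656-115273715 (Cyp4a32), chr4:115236398-115236457 (Cyp4a31), chr4:114971809-114971868 (Cyp4a12a), chr4:115084364-115084423 (Cyp4a12b) and chr4:115168583-115168642 (Cyp4a14). The Cyp4a12a and Cyp4a12b stretches differ at 0 bases, Cyp4a32 differs from Cyp4a10 at 2, Cyp4a31 at 3 and Cyp4a14 at 15.

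Over the whole coding sequence, Cyp4a12a and Cyp4a12b are 98.5% identical and differ at 23 of 1527 aligned bases. Cyp4a10 is 97.2% identical to Cyp4a32 and 96.6% to Cyp4a31. Cyp4a14 stands alone, with 75.1% to 76.0% identity to the other members. Of all stretches of 50 coding bases, 54.9% of those in Cyp4a12a or Cyp4a12b occur unchanged in the other gene. The same share was 46.8% in Cyp4a32, 40.6% in Cyp4a10, 31.5% in Cyp4a31 and 0% in Cyp4a14. How the counting treated reads that match several copies is not given in the sources used here. Values within the Cyp4a12 pair, and among Cyp4a10, Cyp4a31 and Cyp4a32, are uncertain to that extent. For Cyp4a14 no such partner was found among the genes searched. Only coding stretches were looked for, and only in protein-coding transcripts of Cyp4 genes, so untranslated parts and other genes were not examined.

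Values are in RPKTM, reads per kilobase of transcript scaled to a fixed sequencing depth (10 times RPKM), quantile normalized within each table, so every library in a table holds the same set of values and the depth behind a value is unknown. A gene was tested where at least 3 libraries exceeded 5 RPKTM; all 6 members passed in both hepatocyte tables and in the macrophage table of 3 genotypes, where Cyp4a31 passed with 3 libraries, and Cyp4a31 did not pass in the ScapKO macrophage table. Nr1d1 was called higher in RevDKO hepatocytes (137.7 ± 108.4 RPKTM against 90.7 ± 119.0 in Control, SD, n = 12; log2 difference 1.55 ± 0.25, limma adjusted p = 8.87e-05). Nr1d2 did not pass (0.62 ± 0.19, limma adjusted p = 0.0626). In RevScapTKO against Control both were called higher (1.79 ± 0.25, limma adjusted p = 2.13e-06, and 0.95 ± 0.19, limma adjusted p = 3.18e-04). The study itself reports strongly reduced levels of both Rev-erb genes in hepatocytes. It cites a figure of relative mRNA expression whose legend names livers, a measure unlike the values here. A sum over a whole transcript includes any exon outside the deleted part, so the values here do not check the deletion. Levels of single exons were not examined. The REV-ERB target Arntl was 139.1 ± 12.3 RPKTM in RevDKO and 60.8 ± 45.6 in Control, and Scap was 209.3 ± 63.5 RPKTM in RevScapTKO and 495.0 ± 73.1 in Control. In hepatocyte libraries the 12 macrophage markers found summed to a median of 957.5 RPKTM (Control), 1185.8 (RevDKO) and 3167.2 (RevScapTKO), and the 6 stellate cell markers to 855.8, 1209.2 and 2626.8. The 14 hepatocyte markers found summed to 597817.9, 531547.2 and 566686.5 RPKTM. Alb alone stood at 298477.9, 448178.0 or 838976.0 RPKTM in each hepatocyte library of these genotypes. Quantile normalization fixes the values of the top ranks, so sums of hepatocyte markers change in steps with the rank of Alb. In bulk samples, fewer cells of a type and less RNA per cell cannot be told apart.

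In Control hepatocytes Cyp4a14 was the highest member, with a lowest, median and highest library of 233.9, 1274.2 and 3120.8 RPKTM. Cyp4a10 ran from 147.9 through 752.5 to 1244.5, and Cyp4a12a from 230.0 through 430.4 to 619.0. Cyp4a14 was above Cyp4a10 in 12 of 12 Control libraries and Cyp4a10 above Cyp4a12a in 10 of 12. Cyp4a32 (95.8 ± 61.6 RPKTM, SD, n = 12) and Cyp4a12b (77.0 ± 38.2) lay close together and changed order in 5 of 12 libraries, and Cyp4a31 was lowest at 13.5 ± 8.75. The lowest values of Cyp4a10 and Cyp4a14 both came from Control ZT4 replicate 3. At that time the other Control libraries held 1244.5 and 1149.8 RPKTM of Cyp4a10 and 2980.0 and 1642.6 of Cyp4a14. In the same library Cyp4a32 was 206.7 RPKTM, between the 72.0 and 237.5 of the others.

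Loss of both Rev-erb genes in hepatocytes went with lower levels of 4 of the 6 genes. The comparison asks what the REV-ERBs do to these genes, and over the 4 times combined Cyp4a10, Cyp4a14, Cyp4a12a and Cyp4a31 fell in RevDKO while Cyp4a32 and Cyp4a12b did not pass the test. Of all 13326 genes tested, 2.43% were called lower and 2% higher in this comparison, and the median log2 difference was -1.36 over the 6 members and -0.01 over all genes. Cyp4a12a had a lowest, median and highest value of 63.3, 95.5 and 208.7 RPKTM in RevDKO, against 230.0, 430.4 and 619.0 in Control. All 12 RevDKO libraries lay below all 12 Control libraries. Its mean fell 3.72-fold, a log2 difference of -1.92 ± 0.20 (SE; limma adjusted p = 3.81e-08). Cyp4a14, which has no near-identical coding sequence among the other members, had 117.3, 304.0 and 760.3 RPKTM in RevDKO. There 4 of 12 libraries lay below every Control library. It differed by -1.95 ± 0.41 on the log2 scale (limma adjusted p = 0.00241). Cyp4a10 had 71.2, 227.2 and 419.8 RPKTM in RevDKO and differed by -1.73 ± 0.28 (limma adjusted p = 8.99e-05). In both Cyp4a10 and Cyp4a14 the RevDKO and Control libraries did not overlap at ZT16 and ZT22, and at ZT4 they overlapped only through the Control library named above, while at ZT10 each gene had 1 RevDKO library above the lowest Control library. For these and the other separations of libraries given here and below, the share over all genes was not counted.

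The remaining members differed less. Cyp4a31 was 6.04 ± 3.08 RPKTM in RevDKO against 13.5 ± 8.75 in Control (log2 difference -0.99 ± 0.28, limma adjusted p = 0.0367), near the filter on low values. It lost the call in 14 of 24 fits that left out a library, among them the fit without Control ZT4 replicate 2 (log2 difference -0.87, limma adjusted p = 0.0892), and without ZT4 as a whole (-0.94, limma adjusted p = 0.147). Cyp4a12b was 50.4 ± 12.6 RPKTM against 77.0 ± 38.2, a log2 difference of -0.47 with an approximate 95% interval from -1.08 to 0.14 (limma adjusted p = 0.484). Cyp4a32 was 91.1 ± 62.8 against 95.8 ± 61.6 RPKTM, a log2 difference of -0.13 with an interval from -0.56 to 0.30 (limma adjusted p = 0.837). Whether Cyp4a12a and its near-identical neighbour Cyp4a12b differed in their change was not tested.

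**Figure D1:**
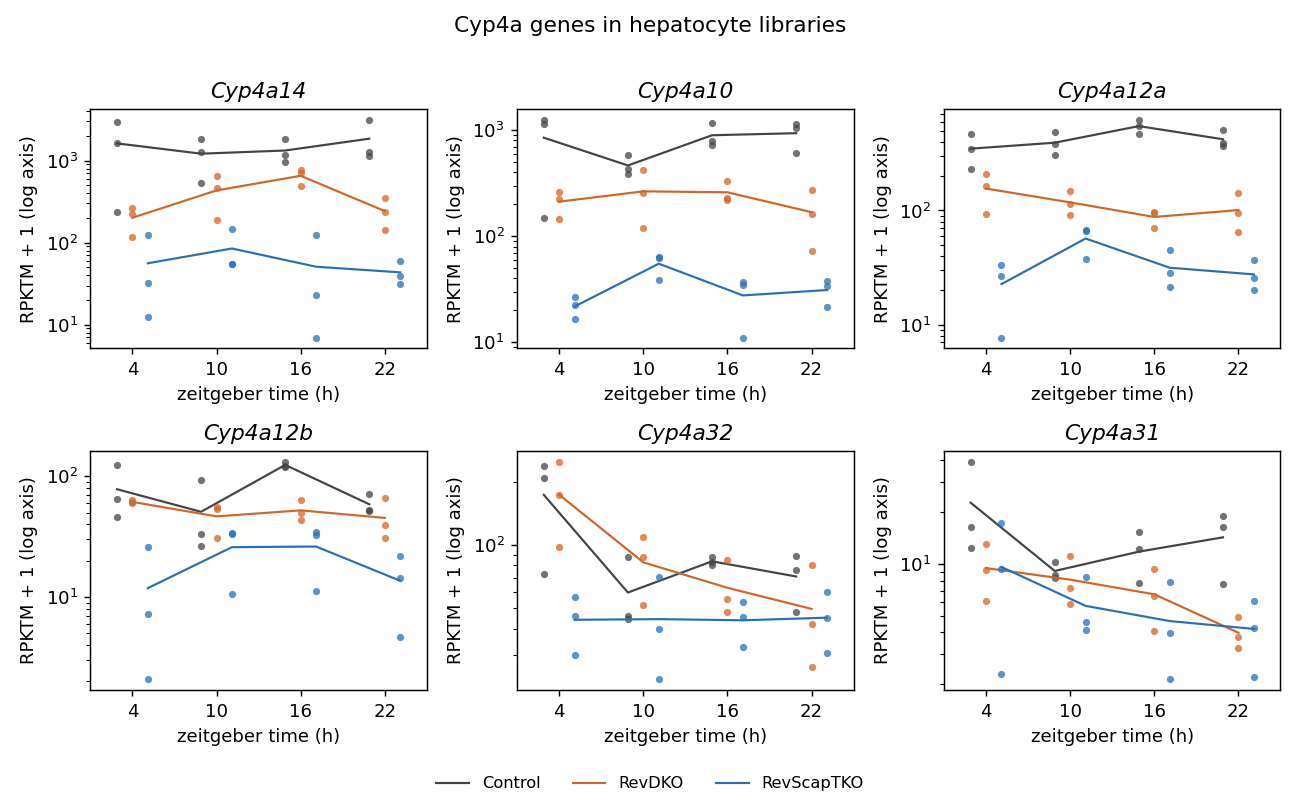
Levels of the 6 Cyp4a genes in hepatocyte libraries by zeitgeber time (h), as RPKTM + 1 on a log axis. Points are single libraries, 3 for each genotype and time, and lines join the means. For Cyp4a12a every RevDKO point lies below every Control point, and for Cyp4a10 every RevScapTKO point lies below every RevDKO point. The share of all genes with such a separation was not counted.

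Loss of Scap on top of the Rev-erb genes went with a second step down. RevScapTKO hepatocytes held less Cyp4a10, Cyp4a14, Cyp4a12a, Cyp4a12b and Cyp4a32 than RevDKO hepatocytes, 5 of the 6 genes, where 12.7% of all genes tested were called lower and 13.5% higher. The median log2 difference was -1.81 over the 6 members and -0.03 over all genes. Cyp4a10 had 10.1, 33.3 and 63.1 RPKTM as its lowest, median and highest RevScapTKO value, all below the lowest RevDKO library. Its log2 difference was -2.77 ± 0.28 (limma adjusted p = 6.52e-09). Cyp4a14 had 5.97, 46.1 and 143.6 RPKTM and 9 of 12 libraries below every RevDKO library, with a log2 difference of -2.93 ± 0.41 (limma adjusted p = 3.14e-06). Cyp4a12a had 6.71, 29.8 and 66.0 RPKTM and 10 of 12 libraries below every RevDKO library (log2 difference -1.85 ± 0.20, limma adjusted p = 2.51e-08). For these separations, and for that of Cyp4a12b below, the share over all genes was not counted.

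Cyp4a12b and Cyp4a32, the members with no call in RevDKO against Control, were lower here. Cyp4a12b was 18.4 ± 12.5 RPKTM in RevScapTKO against 50.4 ± 12.6 in RevDKO, with 8 of 12 libraries below every RevDKO library (log2 difference -1.78 ± 0.31, limma adjusted p = 0.000101). Cyp4a32 was 43.4 ± 14.0 against 91.1 ± 62.8 RPKTM (log2 difference -0.86 ± 0.22, limma adjusted p = 0.00481), and the libraries of the genotypes separated fully at ZT4 only. Without ZT4 its log2 difference was -0.50 (limma adjusted p = 0.191). Cyp4a31 was 5.03 ± 4.28 against 6.04 ± 3.08 RPKTM (log2 difference -0.38 with an interval from -0.94 to 0.18, limma adjusted p = 0.337). The macrophage and stellate cell markers given above were highest in these RevScapTKO libraries. With the mean level of the macrophage markers as a covariate, 3 of the 5 calls remained: Cyp4a12b then had a log2 difference of -1.47 (limma adjusted p = 0.059) and Cyp4a32 of -0.78 (limma adjusted p = 0.237), against -1.78 and -0.86 without the covariate.

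Against Control, all 6 members were lower in RevScapTKO hepatocytes, where 18.7% of all genes tested were called lower and 17.3% higher and the median log2 difference was -3.01 over the members and -0.04 over all genes. The mean of Cyp4a14 was 26.0-fold lower, that of Cyp4a10 23.8-fold, that of Cyp4a12a 12.7-fold and that of Cyp4a12b 4.19-fold. Cyp4a31 and Cyp4a32 were 2.68-fold and 2.21-fold lower. With the macrophage markers as a covariate Cyp4a32 lost its call (log2 difference -0.90, limma adjusted p = 0.0979). For Cyp4a10, Cyp4a14 and Cyp4a12a all 12 RevScapTKO libraries lay below all 12 Control libraries, with the share over all genes not counted. The 3 genotype comparisons share libraries, so these values are not independent of those above. The order of the members changed with the genotype. In RevScapTKO, Cyp4a14 was above Cyp4a32 in only 5 of 12 libraries, and Cyp4a12a (33.6 ± 17.7 RPKTM) and Cyp4a10 (32.9 ± 16.4) were close. Summed over the 6 members, hepatocytes of Control held 2898 ± 1185 RPKTM, those of RevDKO 868.0 ± 273.0 and those of RevScapTKO 191.1 ± 67.5. The share of that sum held by Cyp4a14 was 48.5% ± 12.8 (SD, n = 12) in Control and 27.2% ± 16.7 in RevScapTKO, and the share held by Cyp4a32 was 4.60% ± 6.03 and 25% ± 9.53.

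**Figure D2:**
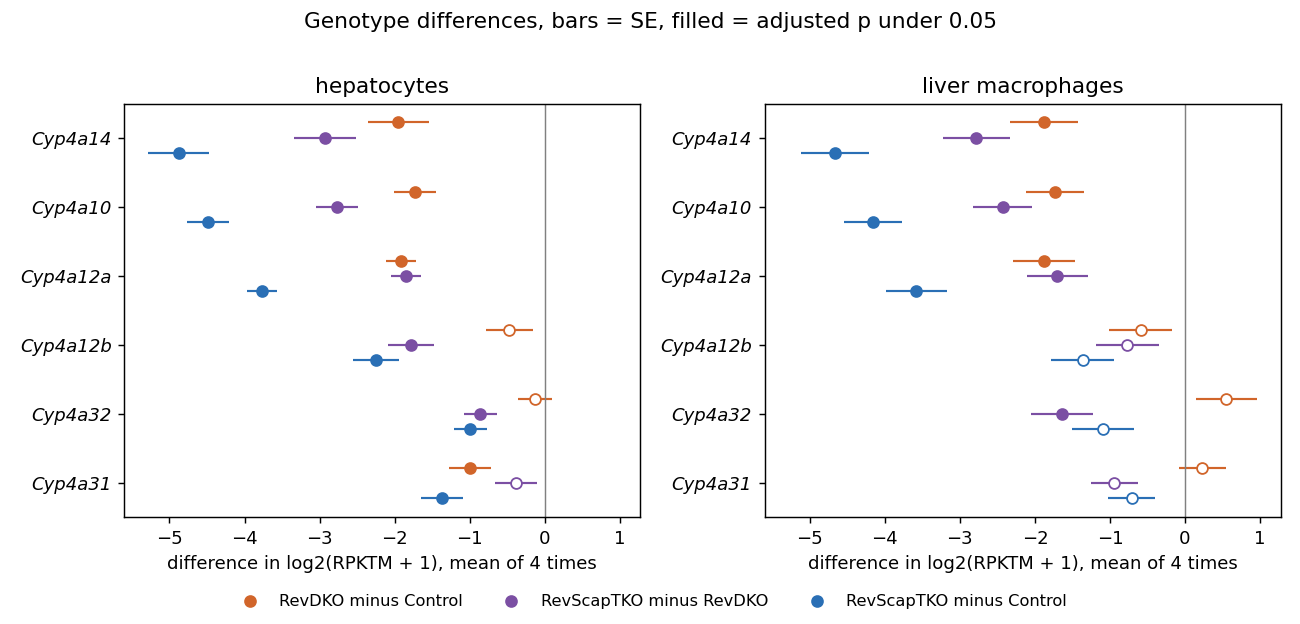
Differences between genotypes in log2(RPKTM + 1), averaged over the 4 times, for each Cyp4a gene in hepatocytes (left) and liver macrophages (right). Bars are standard errors and filled points passed a limma adjusted p of 0.05; Cyp4a10, Cyp4a14 and Cyp4a12a are filled in every comparison of both panels, and lie farther below 0 than the other 3 genes in RevScapTKO against Control.

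In hepatocytes the genes beside the cluster had nearly level means. Cyp4b1, a P450 gene next to Cyp4a32, had mean hepatocyte levels of 64.9, 72.8 and 75.9 RPKTM when Control, RevDKO and RevScapTKO are taken in that order. Efcab14, the next expressed gene, had 113.0, 118.7 and 127.3 RPKTM. Cyp4a29 and Cyp4a30b, which lie before and between the members, stayed at or under 1.09 RPKTM in every hepatocyte library of these genotypes.

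At single times, with 3 libraries against 3, 4 of the 24 pairs of gene and time passed in RevDKO against Control hepatocytes. Of all genes, 0.173%, 0.495%, 0.15% and 0.225% were called lower at ZT4, ZT10, ZT16 and ZT22. Cyp4a12a passed at ZT10, ZT16 and ZT22. At ZT16 it stood at 96.1, 94.9 and 69.2 RPKTM in RevDKO and 619.0, 551.3 and 470.8 in Control (log2 difference -2.65 ± 0.40, limma adjusted p = 2.99e-04). Cyp4a10 passed at ZT22, with 71.2, 159.3 and 271.8 RPKTM against 1052.7, 1137.8 and 612.4 (log2 difference -2.62 ± 0.56, limma adjusted p = 0.0188). Of these calls only that of Cyp4a12a at ZT16 held in every fit that left out 1 library. Cyp4a10 at ZT22 was -2.11 without RevDKO ZT22 replicate 1 (limma adjusted p = 0.146) and lost the call in 4 of 6 such fits. Cyp4a12a at ZT10 lost it in 4 of 6, with -1.56 (limma adjusted p = 0.117) without Control ZT10 replicate 1, and Cyp4a12a at ZT22 in 1 of 6, without RevDKO ZT22 replicate 3 (-1.83, limma adjusted p = 0.0532). Cyp4a14 did not pass at any single time, with log2 differences from -2.87 to -0.99.

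Between RevScapTKO and RevDKO hepatocytes 9 of 24 pairs passed, against shares called lower of 4.86%, 0.735%, 1.14% and 1.78% at ZT4, ZT10, ZT16 and ZT22. Cyp4a10 and Cyp4a12a passed at ZT4, ZT16 and ZT22, Cyp4a14 at ZT16, and Cyp4a12b and Cyp4a32 at ZT4. At ZT16 Cyp4a14 stood at 22.03, 121.6 and 5.97 RPKTM in RevScapTKO and 490.1, 703.6 and 760.3 in RevDKO (log2 difference -4.57 ± 0.81, limma adjusted p = 6.76e-04). At ZT4 Cyp4a12b stood at 25.2, 1.09 and 6.25 RPKTM against 58.6, 62.1 and 60.6 (log2 difference -3.06 ± 0.62, limma adjusted p = 0.00229). The calls of Cyp4a12a at ZT16 and ZT22, Cyp4a10 at ZT22 and Cyp4a32 at ZT4 were lost in 5, 2, 4 and 1 of 6 fits that left out a library, with limma adjusted p up to 0.254 for Cyp4a12a at ZT16 (without RevScapTKO ZT16 replicate 3). No member passed at ZT10, where RevScapTKO levels of Cyp4a10 (54.1 ± 14.2 RPKTM, n = 3) and Cyp4a12a (55.8 ± 16.9) were at their highest. Against Control 16 of 24 pairs passed, with shares called lower of 9.61%, 2.33%, 2.27% and 2.49%. Cyp4a10, Cyp4a14 and Cyp4a12a passed at every time. Cyp4a12b lost its calls at ZT16 and ZT22 with no filter (limma adjusted p = 0.0878 and 0.0993) and in several fits that left out a library. With the macrophage markers as a covariate it lost them too, as did Cyp4a12b and Cyp4a32 at ZT4 (limma adjusted p = 0.0548 and 0.126).

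The genotype differences were not shown to depend on the time of day. A limma F test of genotype by time called 0 of 6 members for RevDKO against Control, where 0.158% of genes were called, and 0 of 6 for RevScapTKO against RevDKO, where 0% were called and 581 of 13326 genes had an unadjusted p under 0.05. The lowest adjusted p of a member in either test was 1.0. Variation over the day within a genotype was likewise not called for any member in Control, RevDKO or RevScapTKO hepatocytes, where 6.61%, 2.48% and 0.87% of all genes were called by limma. Cyp4a32 came nearest in RevDKO, falling from 172.2 ± 75.6 RPKTM at ZT4 to 48.7 ± 28.0 at ZT22 in its means (limma adjusted p = 0.057). In Control it was 172.1 ± 88.0 at ZT4 and 58.5 ± 24.7 at ZT10 (limma adjusted p = 0.129). JTK_CYCLE, a rank test for a daily cycle, was run in the manner of the study with each series entered in duplicate, which lowers p-values without adding data. In that form it called, in hepatocytes, Cyp4a12a in Control (peak ZT16) and RevScapTKO (peak ZT10), and Cyp4a14 (peak ZT16) and Cyp4a32 (peak ZT7) in RevDKO, where 24.2%, 14.3% and 24.1% of genes tested in Control, RevScapTKO and RevDKO were called. With each value entered singly it called 0 members in these genotypes, with 4.36%, 1.48% and 3.83% of genes called in the same order.

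Across the 36 hepatocyte libraries some members with little shared sequence moved together, as did some with much, while others of each kind did not. Cyp4a10 and Cyp4a14 rose and fell together, with Pearson's r = 0.95 over all libraries and 0.77 for deviations from the means of the 12 groups of genotype and time. Cyp4a12a and Cyp4a12b followed each other too, at 0.82 and 0.69. Between the pairs the pooled correlation was high and the correlation within groups was not: Cyp4a14 and Cyp4a12a had r = 0.80 over all libraries and -0.32 within groups, and Cyp4a10 and Cyp4a12a had 0.88 and -0.15. Control ZT4 replicate 3, far below its group in Cyp4a14, was nearer to it in Cyp4a12a (230.0 RPKTM against 341.2 and 468.8). Within groups Cyp4a31 went with Cyp4a14 (0.60), while Cyp4a32, which shares more sequence with Cyp4a10, had 0.01 with it and 0.61 with Cyp4a12b. Cyp4a31 had 0.04 with its near copy Cyp4a32 and -0.47 with Cyp4a12a, the lowest value within groups. The libraries share their normalization, and members share reads as described, so these values are given as a description.

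**Figure D3:**
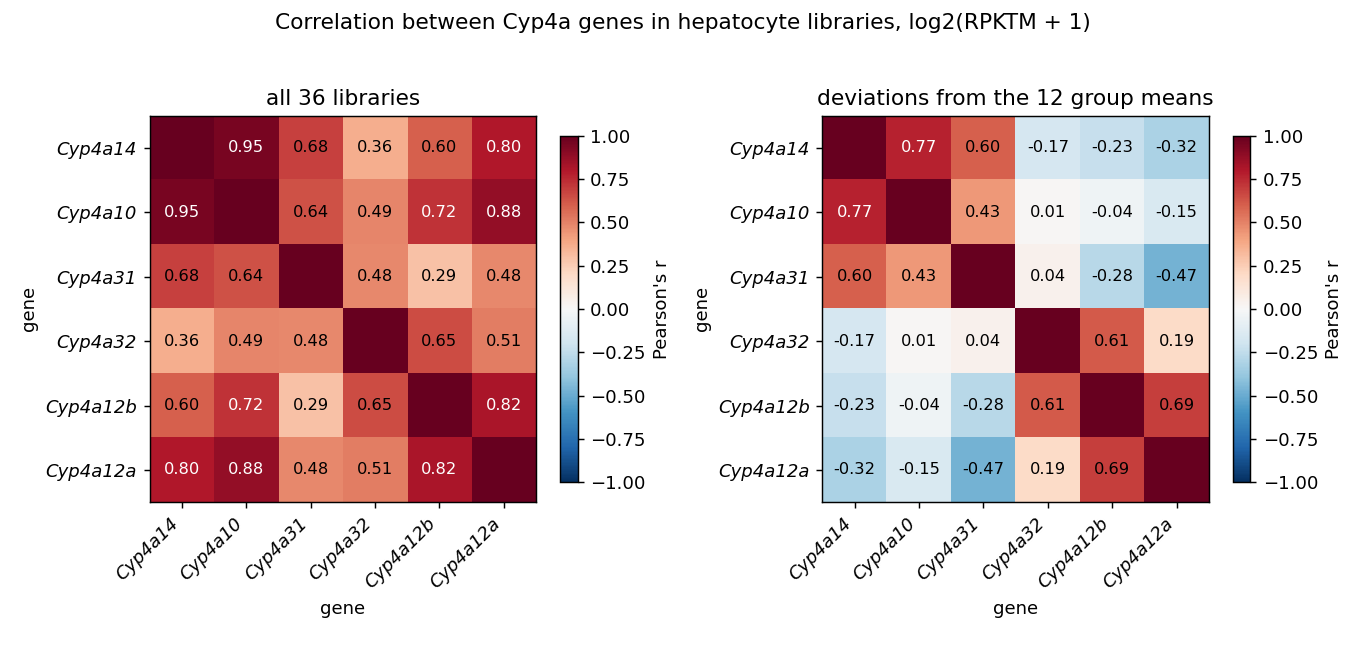
Pearson's r between Cyp4a genes across hepatocyte libraries on log2(RPKTM + 1), over all 36 libraries (left) and for deviations from the 12 group means (right). Every value on the left is positive, whereas on the right the Cyp4a14 and Cyp4a12a pair stands at -0.32 and the Cyp4a14 and Cyp4a10 pair at 0.77.

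Among 13320 other genes, those most like Cyp4a14 across these 36 libraries were Gstt3 (r = 0.911, within groups 0.693), Rdh16 (0.884, 0.566), Prxl2a (0.869, 0.499), Rpl29 (0.858, 0.492) and Lipg (0.853, 0.628). Gstt3 encodes a glutathione S-transferase and its mean fell from 119.1 RPKTM in Control through 62.2 in RevDKO to 13.7 in RevScapTKO. Those most like Cyp4a12a were Retsat (0.913, 0.592), Ces1e (0.912, 0.354), Dlec1 (0.897, 0.270), Acaa1b (0.887, 0.238) and Ces1d (0.884, 0.117). Retsat encodes retinol saturase, Ces1d and Ces1e carboxylesterases, and Acaa1b a peroxisomal thiolase. Retsat stood at 1404.3, 629.4 and 390.6 RPKTM in the 3 genotypes. These lists follow the genotype steps shared by many genes and carry no test.

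Some of the enzymes that act after the Cyp4a step were lower as well. Of 13 omega-oxidation partners tested in hepatocytes, 3 were lower and 0 higher in RevDKO against Control, where 2.43% of genes were called lower, and their median log2 difference was -0.27 against -0.01 over all genes. Aldh3a2, the fatty aldehyde dehydrogenase, was 399.4 ± 82.2 RPKTM against 1122.0 ± 364.0 in Control (log2 difference -1.45 ± 0.14, limma adjusted p = 1.67e-08). Adh1, an alcohol dehydrogenase, differed by -1.02 ± 0.12 (limma adjusted p = 9.43e-07). Between RevScapTKO and RevDKO 6 were lower and 1 was higher (12.7% and 13.5% of all genes), with a median of -0.26 against -0.03 over all genes. Ehhadh, the peroxisomal bifunctional enzyme, was 286.3 ± 130.2 against 600.1 ± 103.8 RPKTM, and Crot, a peroxisomal carnitine acyltransferase, was higher by 0.57 ± 0.18 (limma adjusted p = 0.0169). Against Control 10 of 13 were lower in RevScapTKO (18.7% of all genes), with a median of -0.57, led by Adh1 (-1.42), Aldh3a2 (-1.42) and Ehhadh (-1.39).

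Many targets of PPAR alpha were lower in the first comparison. The list shares genes with the partners above, among them Aldh3a2, Ehhadh and Abcd3. Of 36 tested in hepatocytes, 18 were lower and 0 higher in RevDKO against Control (2.43% and 2% of all genes), with a median log2 difference of -0.42 against -0.01 over all genes. The largest changes were in acyl-CoA thioesterases and a thiolase: Acot3 (2.4 ± 2.6 RPKTM against 42.0 ± 30.4, log2 difference -3.56 ± 0.37), Acot1 (9.7 ± 5.1 against 69.3 ± 31.6, -2.62 ± 0.30) and Acaa1b (417.8 ± 95.5 against 1491.9 ± 420.3, -1.81 ± 0.22). Between RevScapTKO and RevDKO 11 were lower, where 12.7% of all genes were, and 4 were higher, a share near the 13.5% of all genes; the median was -0.29 against -0.03. Fgf21, a secreted hormone, was higher (36.2 ± 19.4 against 13.0 ± 10.1 RPKTM, log2 difference 1.63 ± 0.41, limma adjusted p = 0.00417), as was the lipid droplet gene Cidec (1.04 ± 0.25, limma adjusted p = 0.00279), while Ehhadh fell by 1.15. Against Control 23 were lower and 2 higher in RevScapTKO (18.7% and 17.3% of all genes), with a median of -0.55, again led by Acot3 (-4.16), Acot1 (-3.57) and Acaa1b (-2.84).

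The receptor itself passed the test in RevScapTKO against Control but not in the other two comparisons. In hepatocytes Ppara was 1573.1 ± 490.9 RPKTM for Control, 1169.1 ± 207.4 for RevDKO and 1113.0 ± 355.4 for RevScapTKO. The log2 difference was -0.39 ± 0.12 between RevDKO and Control (limma adjusted p = 0.0512), -0.11 ± 0.12 between RevScapTKO and RevDKO (limma adjusted p = 0.534) and -0.50 ± 0.12 between RevScapTKO and Control (limma adjusted p = 0.00151). Among 10 regulators tested, 1, 1 and 2 were lower in these comparisons and 0 higher, with medians of -0.12, -0.06 and -0.17 on the log2 scale. All genes were called lower at 2.43%, 12.7% and 18.7%, so the shares of regulators in both RevScapTKO comparisons were near those of all genes. Nr1i3, the receptor CAR, fell by 0.40 in RevDKO (limma adjusted p = 0.0209), and Ppargc1a, a PPAR coactivator, fell by 0.69 from RevDKO to RevScapTKO (limma adjusted p = 0.0265).

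The counts for the more distant Cyp4 genes and for the sex-biased genes are to be read against 2.43% of all genes lower and 2% higher in RevDKO against Control, 12.7% and 13.5% in RevScapTKO against RevDKO, and 18.7% and 17.3% in RevScapTKO against Control. Of 7 other Cyp4 genes tested, 0 passed in RevDKO against Control and 3 were lower in RevScapTKO against RevDKO. These were the fatty acid hydroxylases Cyp4f15 (log2 difference -0.63 ± 0.11), Cyp4f14 (-0.35 ± 0.12) and Cyp4f13 (-0.34 ± 0.12). Against Control 2 were lower, Cyp4f15 (-0.61) and Cyp4f13 (-0.40), and Cyp4f17 was higher (0.40). Cyp4a12a is male-biased, and of 9 other male-biased liver genes tested few were lower. In RevDKO 1 was higher, the pheromone gene Mup20 (log2 difference 0.67 ± 0.18), and 1 was lower, the glutathione S-transferase Gstp1 (-0.72 ± 0.13). In RevScapTKO against RevDKO 5 were higher and 0 lower, led by Selenbp2 (1.99 ± 0.35), Mup20 (1.86 ± 0.18) and the oxysterol hydroxylase Cyp7b1 (1.2 ± 0.25). Against Control 5 were higher too, led by Mup20 (2.53), Selenbp2 (1.63) and Cyp7b1 (1.16). Of 4 female-biased genes tested, the steroid hydroxylase Cyp17a1 was higher in RevDKO (3.10 ± 0.31). Between RevScapTKO and RevDKO Cyp2a4 was higher (4.60 ± 0.78) and Cyp17a1 lower (-1.66 ± 0.31), and against Control both were higher (6.36 and 1.44).

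Liver macrophage libraries held the members at low levels with the same order of genotypes for Cyp4a10, Cyp4a14 and Cyp4a12a. The comparison asks whether a change in hepatocytes is seen in their neighbours. Hepatocyte markers were present in these libraries: all 14 found had a mean of at least 1 RPKTM, and their sum had a median of 98946.9 RPKTM (Control), 85728.1 (RevDKO) and 96451.0 (RevScapTKO). The 12 macrophage markers found had median sums of 19791.1, 9967.6 and 10702.1 RPKTM in the same order, with wide ranges that overlapped (3593.3 to 42102.9, 4283.7 to 35011.6 and 5368.9 to 34220.9), and their part in the member values was not tested. In Control, the median of each member in macrophage libraries was 7.89% to 13.6% of its median in hepatocyte libraries, where the hepatocyte markers stood between 6.13% and 23.8% with a median of 12.6%. In RevDKO the markers stood between 8.88% and 22.3%; Cyp4a10 was below that range at 6.9%, Cyp4a31 above it at 39.5%, and the other 4 members within it. In RevScapTKO the members stood at 5.14% to 13.0% and the markers between 5.64% and 24.3%. Since the tables were normalized separately, these shares are only a rough scale. What part of a macrophage value came from hepatocyte RNA was not tested.

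In macrophage libraries Cyp4a14 had a lowest, median and highest value of 12.2, 113.5 and 404.2 RPKTM in Control. The same values were 3.30, 39.8 and 116.3 for RevDKO and 0, 3.47 and 13.2 for RevScapTKO. RevDKO differed from Control by -1.88 ± 0.45 on the log2 scale (limma adjusted p = 0.0363) and RevScapTKO from RevDKO by -2.78 ± 0.45 (limma adjusted p = 1.12e-04). Cyp4a10 differed by -1.73 ± 0.39 (limma adjusted p = 0.0268) and -2.43 ± 0.39 (limma adjusted p = 1.23e-04), and Cyp4a12a by -1.88 ± 0.41 (limma adjusted p = 0.0179) and -1.70 ± 0.41 (limma adjusted p = 0.0135). These made 3 of 6 members lower in RevDKO against Control, where 0.172% of 13947 genes were called lower and 0.402% higher, and with Cyp4a32 (-1.64 ± 0.41, limma adjusted p = 0.0184) 4 of 6 lower in RevScapTKO against RevDKO, where 1.78% were lower and 1.23% higher. The medians over the 6 members were -1.16 and -1.67 on the log2 scale, against -0.04 and 0.04 over all genes. The count of 4 went to 2 with a pseudocount of 0.1, with the hepatocyte markers as a covariate, or without ZT4, where Cyp4a12a and Cyp4a32 lost their calls.

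Against Control 3 of 6 were lower in RevScapTKO macrophages, Cyp4a10, Cyp4a14 and Cyp4a12a, where 1.38% of genes were called lower and 2.38% higher, and Cyp4a12b differed by -1.36 ± 0.42 (limma adjusted p = 0.066). At single times 10 of 24 pairs passed by limma in that comparison, where 0.215%, 0.151%, 0.158% and 0.108% of genes were called lower at ZT4, ZT10, ZT16 and ZT22. With a pseudocount of 0.1, no filter, or a fit of only the genotypes compared, 4, 3 and 4 pairs passed. In RevDKO against Control 0 of 24 passed, with 0%, 0.0215%, 0.0359% and 0% of genes called lower, and 343 to 1641 of 13947 genes had an unadjusted p under 0.05. In RevScapTKO against RevDKO 0 of 24 passed as well, with 0.1%, 0.136%, 0.172% and 0.265% called lower and 727 to 1416 genes at an unadjusted p under 0.05. A changed daily pattern was called by limma for 0 members in either comparison, with 0% of genes called and 842 and 488 genes at an unadjusted p under 0.05. The day-mean calls in RevDKO against Control rested on few libraries: leaving out 1 library left between 1 and 3 of them, with 1 left in 11 of 24 such fits, and a pseudocount of 0.1 or no filter left 0. Of the 3 macrophage libraries with by far the highest hepatocyte marker sums (Control ZT16 replicate 1 at 828675.7 RPKTM, Control ZT22 replicate 1 at 1633033.5 and RevScapTKO ZT22 replicate 3 at 830076.8), the Control pair held low Cyp4a14 for their groups, 54.0 RPKTM against 102.7 and 262.6 at ZT16 and 56.3 against 404.2 and 389.5 at ZT22. The RevScapTKO library was likewise the lowest of its group in Cyp4a14, at 4.84 RPKTM against 8.21 and 12.6. Alb alone made up 802615.8, 1606980.8 and 802615.8 RPKTM of the 3 hepatocyte marker sums in that order, values fixed by its rank after quantile normalization. In the other macrophage libraries of these genotypes Alb stood at 15655.6 to 73347.2 RPKTM. Without the 3 libraries of highest sums, as an alternative chosen after seeing the data, the counts were again 3, 4 and 3.

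In macrophage libraries the share of all genes called was smaller than in hepatocytes, as given above, and so were the counts of the wider lists; the cell types were not compared by a test. Of 36 PPAR alpha targets, 3 were lower in RevDKO against Control (Acot4, Acot3 and Aldh3a2, log2 differences -2.01, -1.68 and -1.04). In RevScapTKO 4 were lower and 1 higher against RevDKO, and 8 lower and 1 higher against Control. Of all genes, 0.172%, 1.78% and 1.38% were called lower in these comparisons, and 0.402%, 1.23% and 2.38% higher. The median log2 difference of the PPAR alpha targets was -0.19, -0.21 and -0.48, against -0.04, 0.04 and -0.04 over all genes. Fgf21 was the higher gene in both RevScapTKO comparisons (28 ± 24 RPKTM against 3.0 ± 3.2 in RevDKO and 0.9 ± 1.7 in Control). Of 13 omega-oxidation partners 1, 2 and 4 were lower and 0 higher in the same order, and of 8 other Cyp4 genes 0, 2 and 1 were lower. Cyp4b1, beside the cluster, was among the lower ones in RevScapTKO against RevDKO (log2 difference -0.81 ± 0.20, limma adjusted p = 0.0149) and against Control (-0.91 ± 0.20, limma adjusted p = 0.00469). Ppara did not pass in any of these comparisons, with log2 differences from -0.19 to -0.06, nor did any other of the 11 regulators. Variation with time of day was called for 1 member, Cyp4a14 in RevDKO macrophages (limma adjusted p = 0.0446, where 2.82% of genes were called), with means from 5.97 ± 2.71 RPKTM at ZT4 to 81.2 ± 32.9 at ZT22. That call was lost in 9 of the 12 fits that left out a RevDKO library. In Control and RevScapTKO macrophages 0 members were called, with 0.0645% of genes called in each and 1449 and 479 genes at an unadjusted p under 0.05. JTK_CYCLE in duplicate called Cyp4a10 and Cyp4a31 in Control, Cyp4a14 and Cyp4a12a in RevDKO, and Cyp4a10 and Cyp4a12a in RevScapTKO macrophages, with 13.4%, 19.7% and 10.3% of genes called. Entered singly it called 0 members, with 1.01%, 1.5% and 0.805% of genes called.

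Hepatocyte and macrophage libraries with the same genotype, time and number deviated together for some members. For Cyp4a14 the deviations from the group means had r = 0.77 over 36 pairs of libraries, against a median of 0.10 over 12640 genes, and for Cyp4a10 and Cyp4a32 r was 0.53 and 0.55. For Cyp4a12a, Cyp4a12b and Cyp4a31 it was 0.22, 0.14 and 0.06. Control ZT4 replicate 3 was lowest of its group for Cyp4a14 in both cell types, at 233.9 RPKTM in hepatocytes and 27.8 in macrophages. The labels do not say whether equal numbers mark the same liver.

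**Figure D4:**
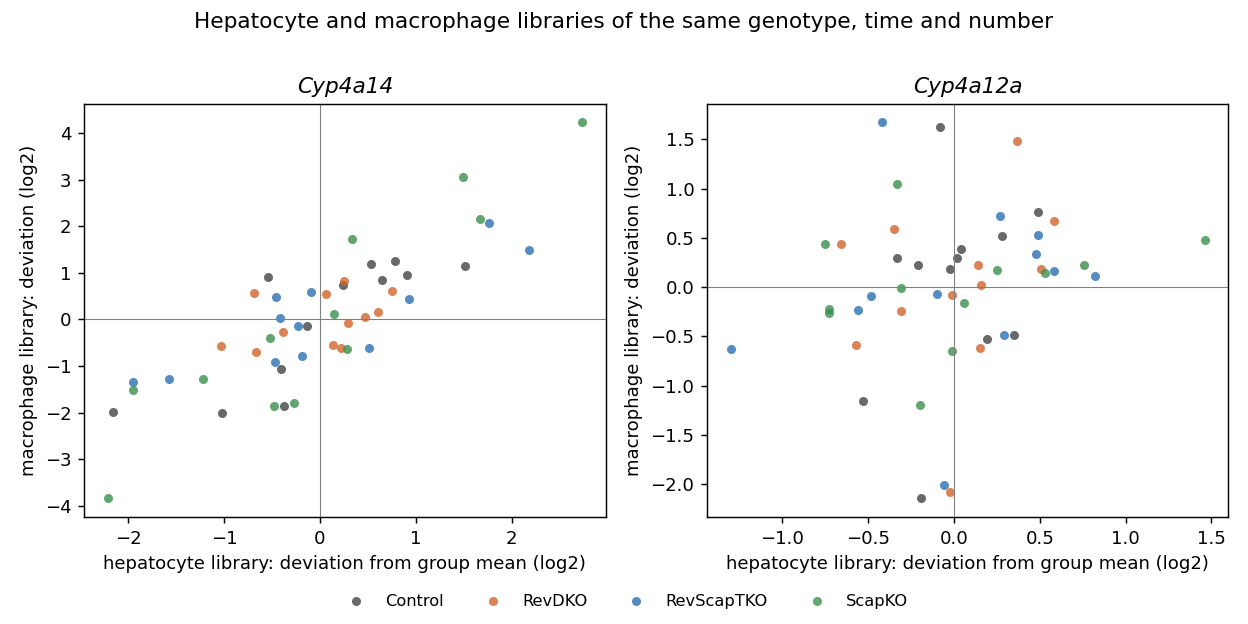
Deviation of each library from the mean of its group in log2(RPKTM + 1), hepatocyte library on the horizontal axis and macrophage library of the same genotype, time and number on the vertical axis, for Cyp4a14 (left) and Cyp4a12a (right). Cyp4a14 points run along a rising line (r = 0.77 over the 36 pairs of 3 genotypes and 0.92 over the 12 ScapKO pairs), and Cyp4a12a points do not (0.22 and 0.21).

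ScapKO libraries were normalized in tables of their own and were compared only within themselves. In ScapKO hepatocytes Cyp4a10 ran from 80.7 through a median of 216.1 to 1408.9 RPKTM and Cyp4a14 from 42.5 through 194.1 to 1333.6, while Cyp4a12a ran from 110.4 through 385.7 to 753.3. Cyp4a12a (369 ± 188 RPKTM, SD, n = 12), Cyp4a10 (355 ± 383) and Cyp4a14 (351 ± 403) had nearly equal means, and neighbours in that order changed places in 5 and 4 of 12 libraries. Cyp4a32 and Cyp4a12b were also alike, at 99.7 ± 45.7 and 89.8 ± 38.7 RPKTM, and Cyp4a31 was lowest at 19.9 ± 6.68. ZT22 replicate 2 (1408.9 and 1333.6 RPKTM), ZT16 replicate 1 (781.9 and 986.8) and ZT4 replicate 2 (270.6 and 413.4) were each the highest of their time for both Cyp4a10 and Cyp4a14. The first of these is the library with high Scap. Without it, as an alternative chosen after seeing the data, the means over 11 libraries were 378 ± 194 RPKTM for Cyp4a12a, 259 ± 200 for Cyp4a10, 261 ± 270 for Cyp4a14 and 88.8 ± 27.0 for Cyp4a32, and the highest values of Cyp4a10 and Cyp4a14 were 781.9 and 986.8.

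The libraries that were high in ScapKO hepatocytes were also high in ScapKO macrophages. ZT22 replicate 2 held 239.5 and 267.1 RPKTM of Cyp4a10 and Cyp4a14 there, and ZT4 replicate 2 held 142.0 and 177.1. The other ScapKO macrophage libraries lay between 0 and 39.1 RPKTM of Cyp4a10 and between 0 and 74.6 of Cyp4a14, and at ZT10 Cyp4a10 was listed at 0 in all 3. Deviations in the paired ScapKO libraries had r = 0.92 for Cyp4a14 and 0.80 for Cyp4a10 over 12 pairs, against a median of 0.15 over 12356 genes. Without ZT22 replicate 2 they were 0.85 and 0.58 over 11 pairs, against a median of 0.08. The ZT22 replicate 2 and ZT4 replicate 2 macrophage libraries also had the highest hepatocyte marker sums of that table, 145909.1 and 137670.3 RPKTM against a median of 50935.5, and their part in these values was not tested. Alb alone stood at 70231.7 RPKTM in both, again a value fixed by its rank.

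Within the ScapKO hepatocyte groups Cyp4a10 and Cyp4a14 had r = 0.94 over 12 libraries, Cyp4a12a and Cyp4a12b 0.76, and Cyp4a14 and Cyp4a12a -0.41. Cyp4a32 here went with Cyp4a10 (0.86). Without ZT22 replicate 2 these values were 0.89, 0.73, -0.19 and 0.71 over 11 libraries. No member was called by limma for time of day in ScapKO hepatocytes, where 1.3% of genes were called and 1638 of 12724 had an unadjusted p under 0.05. Without ZT22 replicate 2 the number of members called was again 0. With it, Cyp4a32 came nearest, with means of 79.4 ± 24.1 RPKTM at ZT4, 61.0 ± 5.10 at ZT10, 100.3 ± 5.6 at ZT16 and 158.1 ± 53.5 at ZT22 (n = 3, limma adjusted p = 0.0697). JTK_CYCLE called Cyp4a32 with a peak at ZT22, both with the values in duplicate and singly, where 14.6% and 2.67% of genes were called; the test was not run without that library. In ScapKO macrophages 0 of 5 members tested were called, with 0% of genes called by limma and 1195 of 13930 at an unadjusted p under 0.05, and JTK_CYCLE called 0 as well, with 15.1% and 1.96% of genes called. In 1 ScapKO hepatocyte library, ZT16 replicate 3, Xist stood at 129.7 RPKTM beside Y-linked transcripts; its Cyp4a10 and Cyp4a14 values (408.7 and 373.9 RPKTM) lay between those of the other libraries of its time.

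**Figure D5:**
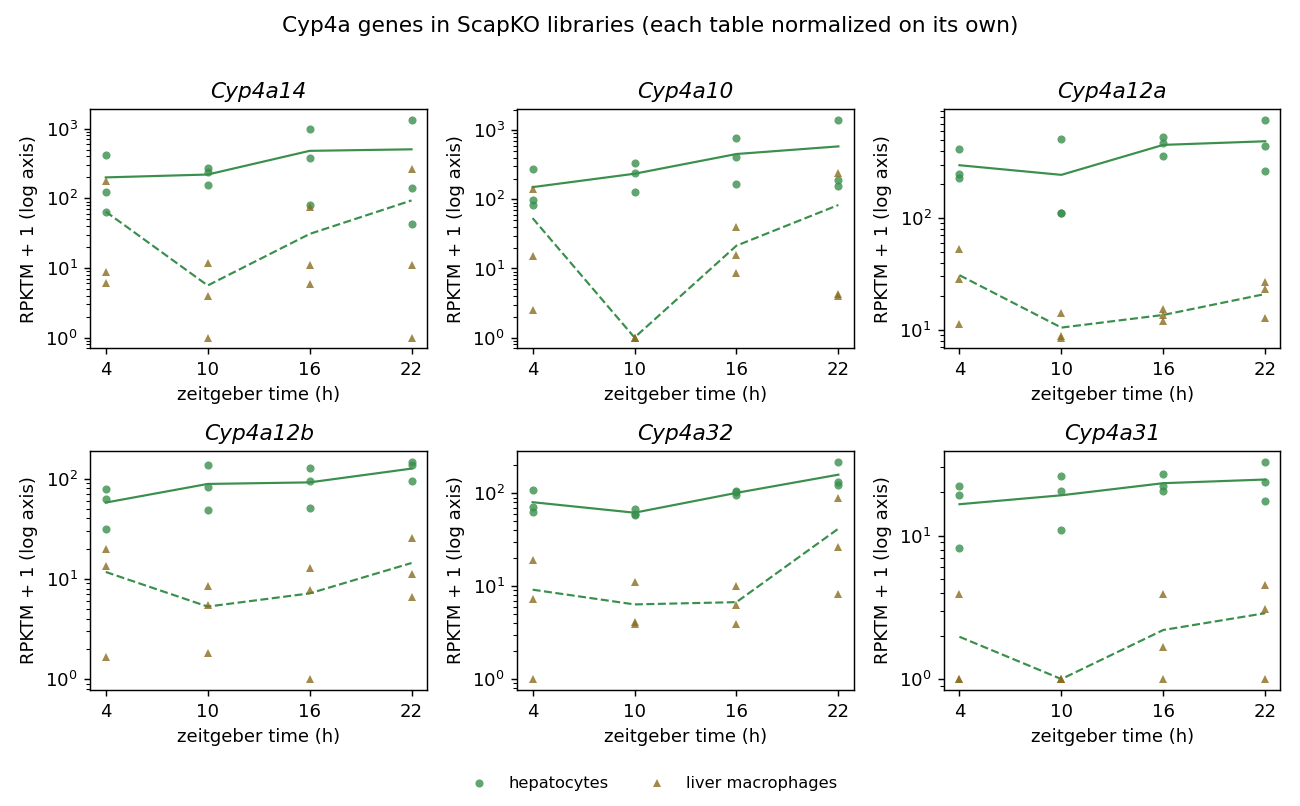
Levels of the 6 Cyp4a genes in ScapKO hepatocyte (circles, solid line through means) and macrophage libraries (triangles, dashed line) by zeitgeber time (h), as RPKTM + 1 on a log axis. There are 3 libraries at each time; Cyp4a10 and Cyp4a14 in hepatocytes spread from 80.7 to 1408.9 and from 42.5 to 1333.6 RPKTM, and the members lie far lower in macrophage libraries, which were normalized in a table of their own.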

How the data were processed

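RNA from isolated hepatocytes and liver macrophages was sequenced from 96 libraries, 3 per genotype, cell type and time. The authors aligned reads with STAR to mm9 and counted them with HOMER over RefSeq transcripts (versions not given in the sources used here), and deposited RPKTM, which is RPKM times 10, quantile normalized in 4 tables. The libraries were stranded per the study's methods; use of strand in counting is not stated. Each table was analysed apart. Genes were represented by the transcript with the highest mean and kept where at least 3 libraries exceeded 5 RPKTM. Differences were fitted on log2(RPKTM + 1) in limma 3.58.1 (R 4.3.3) with a mean for each genotype and time, a mean-variance trend and Benjamini-Hochberg adjustment over all genes at 0.05, and so are smaller than the true change for low genes. JTK_CYCLE, the study's rhythm test, was an alternative. The fit was checked on simulated data. Sequences were read from GENCODE vM1 and the NCBIM37 genome (mm9). The genes named were the 6 members, the targeted genes, Arntl and Ppara, up to 3 genes with the largest called change in each list and comparison (1 such gene is not reported here), and the 5 genes most correlated with Cyp4a14 and with Cyp4a12a. Members and lists were chosen with earlier results of these data known. The study's methods call the libraries biological replicates, and p-values measure the spread between them. Alternatives were other pseudocounts, no filter, summed transcripts, fewer genotypes, a replicate block, a marker covariate, leaving out each library and, chosen after seeing the data, leaving out ZT4, 3 macrophage libraries or 1 ScapKO pair.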

Additional observations from a re-analysis of the deposited data

Results flagged for a closer look

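Cyp4a31 at ZT16 moved in opposite directions in the 2 cell types when RevDKO was set against Control. Each of the 3 RevDKO hepatocyte libraries lay below the Control mean, with an average difference of -0.85 on the log2 scale, and each of the 3 macrophage libraries lay above it, with an average difference of 1.15. The macrophage levels were 4.21, 3.93 and 0.90 RPKTM in RevDKO and 0.71, 0.38 and 0.88 in Control, all under the level of 5 RPKTM used in the filter. The tables were normalized separately, and the difference between the cell types was not tested. Neither contrast passed limma on its own (adjusted p = 1.0 in hepatocytes and 0.465 in macrophages).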

How the results depend on the processing

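The day-mean counts in hepatocytes stayed within 3 to 4 of 6 members for RevDKO against Control and 5 to 6 for RevScapTKO against Control under every setting run, and the count for RevScapTKO against RevDKO was 5 except 4 over ZT10, ZT16 and ZT22 and 3 with the marker covariate, which also took the pairs at single times from 9 to 5. Single-time counts for RevDKO against Control fell from 4 to 2 with no filter. In macrophages the RevDKO against Control count of 3 went to 0 with a pseudocount of 0.1 or no filter, to 1 over ZT10, ZT16 and ZT22, and to between 1 and 3 when libraries were left out. The RevScapTKO against RevDKO count of 4 went to 2 with a pseudocount of 0.1, with the marker covariate, which turned Cyp4a12b from -0.77 to 0.08 (limma adjusted p = 0.936), or without ZT4. Single-time pairs went from 10 to 4, 3 and 4 for RevScapTKO against Control (pseudocount 0.1, no filter, only the genotypes compared; 7 to 10 without single libraries). They went from 0 to 1 for RevScapTKO against RevDKO (pseudocount 0.1, only the genotypes compared, without the 3 macrophage libraries rich in hepatocyte markers; 0 to 1 without single libraries) and for RevDKO against Control from 0 to between 0 and 1 without single libraries.

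Calls by time of day were the least steady. In hepatocytes JTK_CYCLE in duplicate gave 1, 2 and 1 members in Control, RevDKO and RevScapTKO and 1 in ScapKO, where single entry and the marker covariate also gave 1; leaving out libraries gave 0 to 1, 0 to 1, 0 to 2 and 0 to 1. In macrophages duplicate entry gave 2 in each of Control, RevDKO and RevScapTKO, and the RevDKO count of 1 went to 0 with a pseudocount of 0.1, no filter, summed transcripts, the marker covariate or single entry, and to between 0 and 1 when libraries were left out. The cause was not tested for any of these.

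Within a cell type, libraries of different genotypes or times with equal replicate numbers were mostly little alike. Their deviations had a median r of 0.019 in hepatocytes and 0.083 in macrophages, against -0.011 and -0.04 for unequal numbers. Single pairs with equal numbers reached 0.534 and 0.53, and whether some numbers share a batch was not tested. With the replicate block, hepatocyte day-mean counts were 4, 5 and 6 as before, and macrophage single-time pairs for RevScapTKO against RevDKO went from 0 to 1; no other count moved by over 1.5 times.

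Among values of single members, 996 of 1098 fits without a library kept both direction and call, 99 lost the call and 3 gained it; of 589 fits under other settings 519 kept both, 67 lost the call, 2 gained it and 1 reversed. Depth is unknown in these normalized values, so the precision of low levels such as those of Cyp4a31 cannot be set from counts.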
